A study of Mus musculus with 97 samples.

Results

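EP300 summits are the centres of genomic sites bound by EP300, and the data on them are average profiles of chromatin from 1000 bp to the left of the summit to 1000 bp to the right, with 1 value per base. The profiles are those that the labels assign to these sites, namely every profile whose region is EP300 and whose centre is the summit. There are 14 such unsmoothed profiles among the 94 of the whole table, and each has a smooth curve made by the authors beside it. The sources used here give neither the number of EP300 sites averaged nor their positions, so no sequence is shown.

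The study examined how transcription factors and nucleosomes are organised in mitotic and interphase mouse embryonic stem cells of the E14Tg2a line, which the labels call Tg2a. Chromatin was measured by ATAC-seq, by MNase-seq and by MNase digestion followed by immunoprecipitation of histone H3 (here H3-bound MNase, from cells fixed with FA according to the labels). For MNase and H3-bound MNase, mitotic cells were held for 4 to 5 h in 50 ng per ml nocodazole, a drug that blocks spindle assembly, and were then shaken off and filtered. The interphase cells were untreated cultures of the same line, collected beside them with trypsin, so they held a mixture of cell cycle phases.

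The mitotic ATAC libraries carry the label M, and the treatment notes name no arrest step for ATAC. ATAC had 2 libraries in mitosis and 2 in interphase. Each of the 3 MNase concentrations, 0.5, 16 and 128 in a unit the labels do not give, had 3 total MNase libraries in mitosis and 3 in interphase. The H3-bound fraction had 2 libraries in mitosis and 2 in interphase at each concentration. For EP300 summits the table holds 1 profile per assay, concentration and cell cycle state, so there are no replicate values. No difference below has a replicate error or a test, and the depth behind the profiles is unknown.

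EP300 (p300) is a histone acetyltransferase that transcription factors recruit to active enhancers, and its binding is widely used to mark such enhancers. ATAC-seq inserts adapters with a transposase into DNA that is not covered by nucleosomes, so cut sites mark open DNA. MNase digests DNA between nucleosomes, and the midpoint of a surviving fragment marks the middle of whatever protected it, usually a nucleosome. Pulling down H3 keeps fragments held by histones, while the total also holds fragments protected by other proteins. In mitosis chromosomes condense and many transcription factors leave chromatin.

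All levels below are the deposited values multiplied by 10000. The centre is the mean over the bases within 100 bp of the summit, and the outer flank is the mean over the bases 750 to 1000 bp away on both sides. The ratio of centre to outer flank is taken within a profile, so a factor that scales a whole profile cancels in it. The left and right arms of the 14 profiles gave central values that differed by 0.416 to 3.62% of the centre. The scatter of single bases about the smoothed profile was 5.41 to 10.0% of the outer flank for total MNase, 9.55 to 10.8% for ATAC and 11.0 to 19.1% for H3-bound MNase.

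At EP300 summits, ATAC cut sites were enriched in both states, and the enrichment was smaller in mitosis. The central level was 38.7 in mitosis and 66.4 in interphase, a log2 ratio of -0.78. The outer flank was 16.3 in mitosis and 20.8 in interphase, also lower in mitosis but by less. The centre stood 2.37 times over the outer flank in mitosis and 3.19 times over it in interphase, a log2 ratio of -0.43. Both the summit and its surroundings were lower in mitosis, and the summit was lower by the larger factor.

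The ATAC summit was a single symmetric peak centred at the EP300 summit in both states. Smoothed with a Gaussian of SD 10 bp, it reached 45.8 in mitosis and 78.4 in interphase. Its width at 50% of the height above the flank was 180 bp in mitosis and 200 bp in interphase. The area of signal above the flank in mitosis was 0.522 times that in interphase. Of the area within 750 bp of the summit, the central 100 bp on each side held 51.3% in mitosis and 54.5% in interphase. The peak was thus lower in mitosis with little difference in its shape.

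The mitotic deficit in ATAC signal narrowed with distance. Mitosis over interphase was 0.582 within 30 bp of the summit, 0.597 from 80 to 130 bp, 0.664 from 130 to 230 bp and 0.761 from 230 to 400 bp. It was 0.784 in the outer flank, so that beyond 230 bp the ratio was close to that of the flank.

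**Figure D1:**
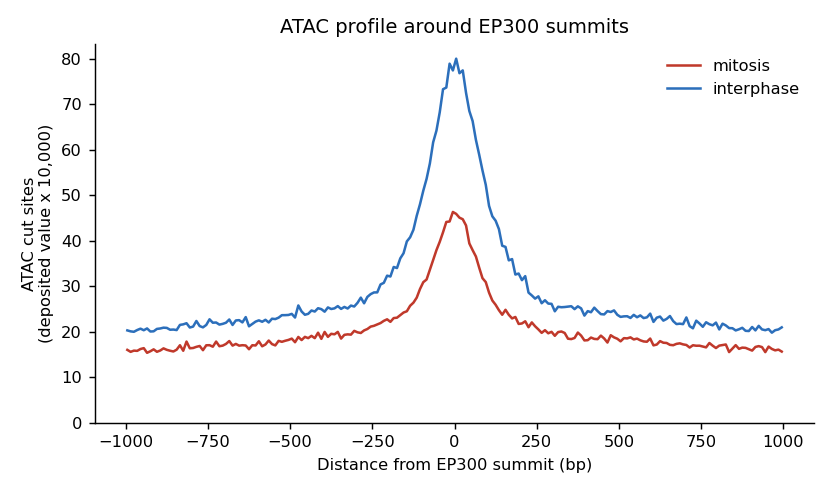
ATAC cut sites (deposited value x 10,000, means of 10 bp bins) against distance from the EP300 summit in bp, for mitosis (red) and interphase (blue), 1 profile each. Both states peak at the summit, at 45.8 in mitosis and 78.4 in interphase after smoothing, over flanks of 16.3 in mitosis and 20.8 in interphase.

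Total MNase midpoints gave a different picture: the central level in mitosis was above or below that in interphase depending on the concentration. At 0.5 the centre was 7.98 in mitosis and 6.33 in interphase, a log2 ratio of 0.33. At 16 it was 6.85 in mitosis and 8.30 in interphase, a log2 ratio of -0.28. At 128 it was 2.65 in mitosis and 2.75 in interphase, a log2 ratio of -0.05.

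The outer flanks of total MNase differed between the states in the same direction as the centres at each concentration. At 16 and 128 the flanks differed by more than the centres. The flank was 7.55 in mitosis and 6.07 in interphase at 0.5, 6.19 in mitosis and 8.10 in interphase at 16, and 1.98 in mitosis and 2.62 in interphase at 128. Dividing each centre by its own flank turned the sign at 16 and at 128. Centre over flank was 1.06 in mitosis and 1.04 in interphase at 0.5, a log2 ratio of 0.02. It was 1.11 in mitosis and 1.03 in interphase at 16, a log2 ratio of 0.11, and 1.33 in mitosis and 1.05 in interphase at 128, a log2 ratio of 0.35. Relative to the flank, the mitotic centre was thus level with the interphase centre at the lowest concentration and above it at the highest.

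The interphase profiles of total MNase had the form of an ordered array around EP300 summits. After smoothing with a Gaussian of SD 25 bp and averaging the arms, the first maximum lay 180, 170 and 170 bp from the summit at 0.5, 16 and 128. These maxima stood 1.22, 1.26 and 1.15 times over the outer flank at the same concentrations, against smoothed levels of 1.10, 1.01 and 1.02 at the summit itself. The signal in interphase was therefore highest on both sides of the summit and low between those sides.

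At the concentration of 0.5, the interphase profile alone also had a maximum at the summit, 1.10 times over the flank, with a minimum of 1.02 at 70 bp. No such central maximum was found at 16 or 128 in interphase, nor at any concentration in mitosis. In mitosis at 0.5 the smoothed curve had a dip at the summit, where it stood 1.04 times over the flank. The H3-bound profile of interphase at 0.5 had no maximum there either and was at 0.60 of its flank.

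In mitosis the first maximum of total MNase lay 150, 100 and 50 bp from the summit at 0.5, 16 and 128, closer than in interphase at each concentration. It stood 1.16, 1.15 and 1.35 times over the outer flank. At 128 the first maximum hardly exceeded the summit, which was at 1.33, so that the profile had 1 broad central elevation rather than a pair of peaks around a dip. Between 130 and 230 bp, where the interphase maxima lie, the level over the flank at 128 was 1.05 in mitosis and 1.14 in interphase. At 16 it was 1.08 in mitosis and 1.26 in interphase in the same interval. At 0.5 it was 1.14 in mitosis and 1.21 in interphase. Within 30 bp of the summit, the level over the flank was 1.03 in mitosis and 1.11 in interphase at 0.5, 1.04 in mitosis and 1.00 in interphase at 16, and 1.32 in mitosis and 1.02 in interphase at 128. Relative to the flank, mitosis was thus the lower state at the interphase positions at all 3 concentrations, whereas at the summit it was lower at 0.5, nearly level at 16 and higher at 128.

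**Figure D2:**
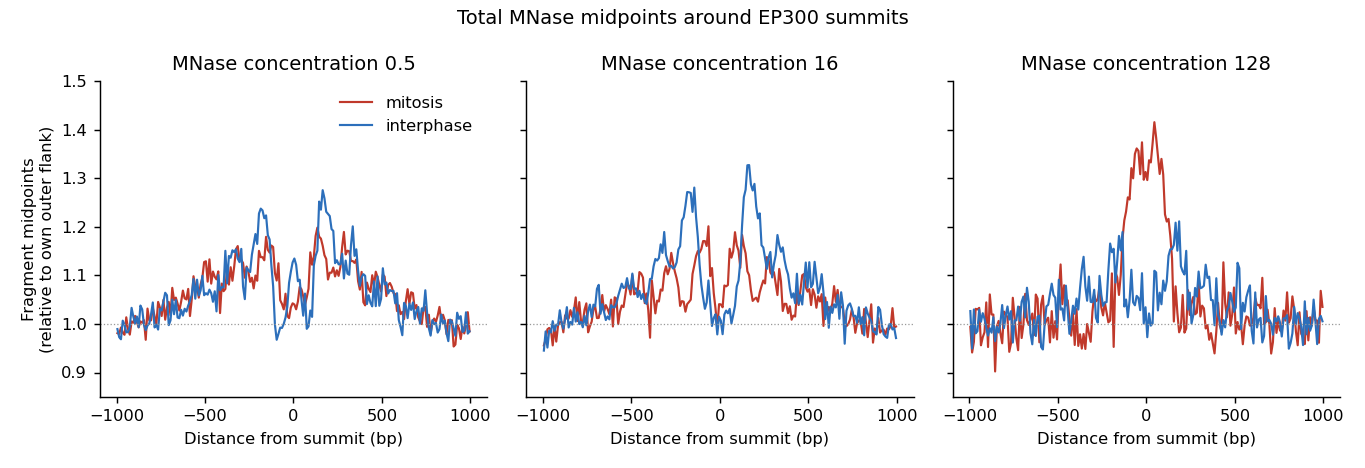
Total MNase fragment midpoints relative to the outer flank of the same profile (10 bp bins) against distance from the EP300 summit in bp, at MNase concentrations 0.5, 16 and 128, for mitosis (red) and interphase (blue), 1 profile each. The interphase flanking peaks lie 170 to 180 bp from the summit, whereas the mitotic ones lie 150 bp away at 0.5 and 100 bp away at 16, and at 128 mitosis has 1 broad central elevation whose highest point is 50 bp away.

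H3-bound MNase midpoints were depleted over EP300 summits in interphase at each concentration, and less so or not at all in mitosis. At 0.5 the centre was 3.01 in mitosis and 2.41 in interphase, a log2 ratio of 0.32. At 16 it was 3.65 in mitosis and 2.58 in interphase, a log2 ratio of 0.50. At 128 it was 1.48 in mitosis and 1.29 in interphase, a log2 ratio of 0.20. Mitosis was the higher state at each of the 3 concentrations, whereas for total MNase levels as deposited it was so only at 0.5.

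Relative to the own flank, mitosis was the higher state at all 3 concentrations in H3-bound MNase, and at 16 and 128 in total MNase. In total MNase at 0.5 the states were level, and with a narrower centre mitosis was the lower state. There the log2 value of centre over flank was 0.062 in mitosis and 0.117 in interphase with 50 bp each side. With 25 bp it was 0.050 in mitosis and 0.158 in interphase. For H3-bound MNase the contrast between the states was larger at the upper concentrations. Centre over flank was 0.747 in mitosis and 0.658 in interphase at 0.5, a log2 ratio of 0.18. It was 1.04 in mitosis and 0.718 in interphase at 16, a log2 ratio of 0.53. It was 1.23 in mitosis and 0.800 in interphase at 128, a log2 ratio of 0.62. The mitotic centre was thus below its flank at 0.5, level with it at 16 and above it at 128, while the interphase centre stayed below its flank throughout.

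The H3-bound difference was concentrated near the summit. At 16, mitosis over interphase scaled by the flanks was 1.56 within 30 bp, 1.48 from 30 to 80 bp and 1.19 from 80 to 130 bp. It was 0.931 from 130 to 230 bp, the interval of the first interphase maximum, and 0.996 from 230 to 400 bp. At 128 the corresponding ratios were 1.53, 1.57 and 1.36 in the 3 inner intervals and 1.03 from 130 to 230 bp. At 0.5 they were 1.08, 1.15 and 1.14 in the inner intervals and 1.01 from 130 to 230 bp. The excess of mitosis over interphase therefore ended at about the position of the first flanking maximum of interphase at 16 and 128. At 0.5 the ratio was 1.04 from 230 to 400 bp and 1.03 from 400 to 750 bp, so a small excess was present farther out.

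**Figure D3:**
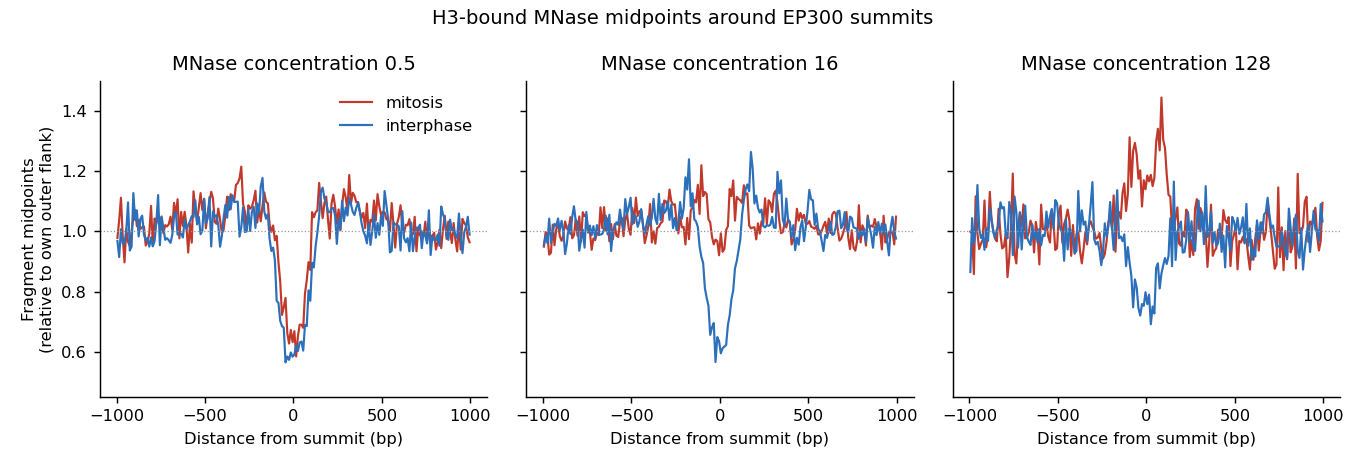
H3-bound MNase fragment midpoints relative to the outer flank of the same profile (10 bp bins) against distance from the EP300 summit in bp, at MNase concentrations 0.5, 16 and 128, for mitosis (red) and interphase (blue), 1 profile each. The central dip is present in both states at 0.5 (0.747 in mitosis and 0.658 in interphase), and at 128 the mitotic centre is at 1.23 while the interphase centre is at 0.800.

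The H3-bound profiles had first maxima at 180 bp in interphase at all 3 concentrations. In mitosis they lay at 110 bp at 16 and at 80 bp at 128. At 0.5 the smoothed mitotic profile had no separate first maximum within 230 bp when the arms were averaged, and the smooth curve of the authors placed one at 160 bp. The heights over the flank were 1.11 in mitosis and 1.14 in interphase at 16. At 128 they were 1.25 in mitosis and 1.01 in interphase, so that the interphase maximum was hardly above its surroundings. On the smooth curve of the authors no first maximum was found at 128 in interphase. The difference of 100 bp between the states at 128 could therefore not be read on that curve.

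Farther from the summit, the second and the third maxima could be placed in all 12 MNase and H3-bound profiles at a smoothing SD of 25 bp with the arms averaged. The second lay 270 to 320 bp from the summit in mitosis and 330 to 340 bp in interphase. The third lay 450 to 480 bp away in mitosis and 510 to 530 bp in interphase. At each concentration and in both fractions these maxima were closer to the summit in mitosis, by 20 to 70 bp for the second and by 30 to 80 bp for the third, and the ranges of the states did not overlap. For the first maximum the 5 pairs that could be compared differed by 30 to 120 bp in the same direction, and by 30 to 100 bp without total MNase at 128, whose mitotic profile had 1 central elevation.

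The spacing between neighbouring maxima overlapped between the states. From the first to the second maximum it was 150 to 220 bp in mitosis and 150 to 170 bp in interphase. From the second to the third it was 150 to 200 bp in mitosis and 170 to 200 bp in interphase. The separation across the summit was taken as the arm-averaged distance of the first maximum, doubled, so it restates that distance. It was 160 to 300 bp in mitosis and 340 to 360 bp in interphase. Total MNase at 128 in mitosis, which had no clear pair, was left out. The ranges of that separation did not overlap between the states, whereas those of the spacing within an arm did. Paired by concentration and fraction, first-to-second spacing was 150 bp in both states in total MNase at 0.5. In the other pairs it was wider in mitosis. At 16 it was 180 bp against 160 bp in interphase in both fractions. At 128 it was 220 bp against 170 bp in total MNase, without a clear mitotic pair, and 220 bp against 150 bp in H3-bound MNase. Second-to-third spacing differed in both directions.

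The second and the third maxima were shallow, with a prominence of 1.36 to 13.9% of the flank in mitosis and 1.27 to 5.97% in interphase. Prominence was the height of a maximum over the higher of the lowest points on its 2 sides. Each side was searched up to a higher value or the end of the profile, so prominence can exceed the rise over the adjacent minimum. The scatter of a smoothed value, estimated from the single bases as if they were independent, was 0.407 to 1.44% of the flank. It is the scatter of 1 smoothed value and not of a prominence, so it is only a rough guide. Of the 35 maxima placed, 34 had a prominence of more than 2 times the scatter of their own profile. Only maxima with a prominence of at least 1% of the flank were placed, which fixed part of that count. The scatter was 0.435% in total MNase at 0.5 in mitosis. At 16 it was 0.484% in mitosis and 0.407% in interphase. In these 3 profiles every placed maximum passed by construction. Among the 34 was the first maximum of total MNase at 128 in mitosis, with a prominence of 36.7%. That maximum was 1.35 times over the flank, and the summit beside it was 1.33 times over the flank. The exception was the second maximum of total MNase at 128 in mitosis, with 1.36% against a scatter of 0.753%, and it set the 270 bp end of the mitotic range and the difference of 70 bp. Without it the second maxima lay 280 to 320 bp away in mitosis and were closer than in interphase by 20 to 50 bp. On the smooth curve of the authors no second maximum was found for H3-bound MNase at 16 or at 128 in interphase, which left 4 of 6 pairs. On the left arm alone the third maximum was not found for total MNase at 0.5 in interphase.

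The sizes of these shifts also depended on the setting, but not their direction. With the smoothing SD lowered by 50%, with 1 arm or on the authors' smooth curve, the second maximum was 10 to 80 bp closer in mitosis and the third was 20 to 90 bp closer. Doubling the smoothing to an SD of 50 bp left 3 of 5 pairs of first maxima, without those of total and H3-bound MNase at 128, and it left 1 of 6 pairs of second maxima and 1 of 6 pairs of the third, each still closer in mitosis.

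**Figure D4:**
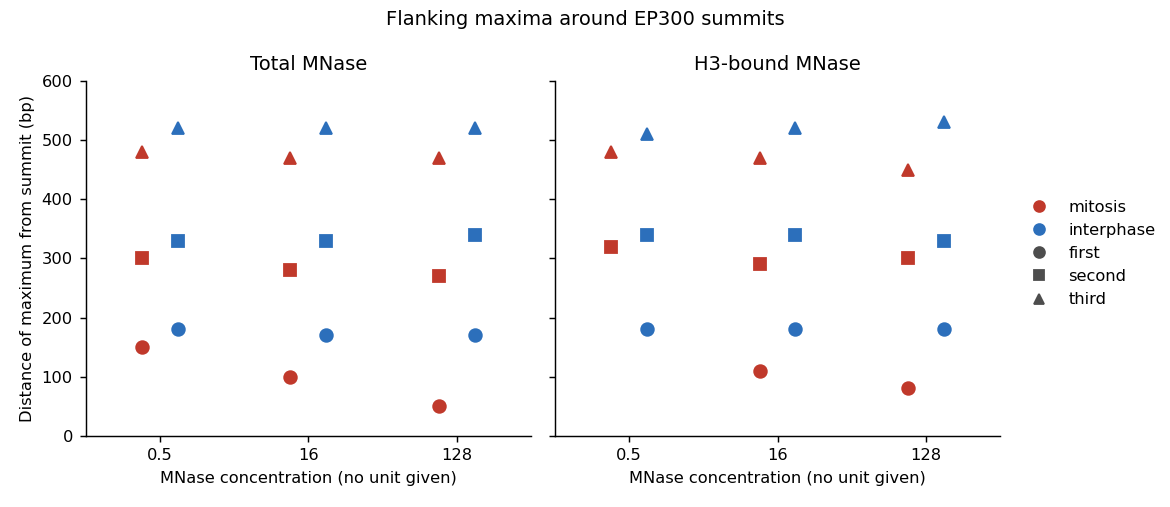
Distance in bp of the first (circles), second (squares) and the third (triangles) maximum from the EP300 summit at each MNase concentration, for total MNase (left) and H3-bound MNase (right), in mitosis (red) and interphase (blue), 1 profile per point, rounded to 10 bp. Every red symbol lies below the blue symbol of the same shape, and no first maximum was found for H3-bound MNase in mitosis at 0.5.

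The effect of the MNase concentration on the centre differed in size between the states. In total MNase, centre over flank at 128 was 1.26 times that at 0.5 in mitosis and 1.005 times in interphase, log2 ratios of 0.33 in mitosis and 0.0069 in interphase. In H3-bound MNase it was 1.64 times that at 0.5 in mitosis and 1.22 times in interphase, log2 ratios of 0.72 in mitosis and 0.28 in interphase. The absolute levels went the other way, with the total MNase centre at 128 being 0.332 times that at 0.5 in mitosis and 0.434 times in interphase. The flank at 128 was 0.263 times that at 0.5 in mitosis and 0.432 times in interphase, so the mitotic centre was lower at the highest concentration by a smaller factor than its own flank.

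The level of H3-bound over total MNase at the same concentration shows how the composition of the fragments varied around the summit. The scales of the 2 fractions are not stated, so the ratio is read only relative to its own outer flank. At the centre it was 0.707 of the flank ratio in mitosis and 0.631 in interphase at 0.5, log2 values of -0.50 in mitosis and -0.66 in interphase. At 16 it was 0.936 in mitosis and 0.70 in interphase, log2 values of -0.10 in mitosis and -0.51 in interphase. At 128 it was 0.921 in mitosis and 0.763 in interphase, log2 values of -0.12 in mitosis and -0.39 in interphase. H3-bound fragments were thus under-represented at the summit relative to the flank in both states at 0.5, and far less so in mitosis at 16 and 128.

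Within 30 bp of the summit the same relative ratio was 0.620 in mitosis and 0.535 in interphase at 0.5. It was 0.922 in mitosis and 0.610 in interphase at 16, and 0.879 in mitosis and 0.749 in interphase at 128. From 130 to 230 bp it was 0.952 in mitosis and 0.886 in interphase at 0.5, 0.970 in mitosis and 0.892 in interphase at 16, and 0.981 in mitosis and 0.878 in interphase at 128. The gap between the states was widest at 16 close to the summit.

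The same measurements exist for other sets of sites in the table, named there Esrrb_Lost, Esrrb_Book, Oct4/Sox2 and TSS (transcription start sites), and these were set beside EP300 summits. Whether sites are shared between the sets is not given. In ATAC the log2 ratio of mitosis over interphase of centre over flank was -0.43 at EP300 summits, against -0.30 at Esrrb_Book, -0.68 at Esrrb_Lost and -0.81 at Oct4/Sox2 summits. TSS had the opposite sign, at 0.28. EP300 summits were therefore in the middle of the 5 sets.

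Esrrb_Lost is the only other set centred on summits in all 7 combinations of assay and concentration. The log2 ratio was higher at EP300 summits than at Esrrb_Lost summits in each of them, by 0.26 in ATAC, by 0.09, 0.09 and 0.15 in total MNase and by 0.14, 0.33 and 0.36 in H3-bound MNase at 0.5, 16 and 128. In H3-bound MNase at 16, EP300 summits had the highest ratio of the 7 profile sets with 0.53, and the other 6 had 0.07 to 0.41. On the left arm alone, however, EP300 summits were below TSS by 0.012. The other 6 include Esrrb_Lost centred on the summit, on the Esrrb motif and on the Oct4/Sox2 motif. Apart from TSS and the Esrrb_Lost summits, the other sets are centred on motifs and not on summits. At 128 EP300 summits had 0.62 and were second to TSS with 0.80. In total MNase at 128 they had 0.35, and the other 6 had 0.07 to 0.34, the highest of these at the Oct4/Sox2 motif. That first place was not stable: EP300 summits were below TSS by 0.066 with a centre of 50 bp each side, by 0.071 with 25 bp and by 0.18 on the left arm alone.

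The H3-bound level itself was also given side by side. H3-bound centre over flank at 16 in interphase was 0.718 at EP300 summits, whereas it was 1.05 at Esrrb_Lost summits and 0.328 at TSS. In mitosis at the same concentration it was 1.04 at EP300 summits, 1.21 at Esrrb_Lost summits and 0.435 at TSS. At 16, EP300 summits thus lay between the factor-bound sets and TSS in both states. At 128 in mitosis they did not: the value was 1.228 at EP300 summits and 1.235 at Esrrb_Lost summits. It was 1.14 at the Esrrb motif of Esrrb_Book and 1.08 at the Oct4/Sox2 motif. None of these differences between sets could be tested.

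**Figure D5:**
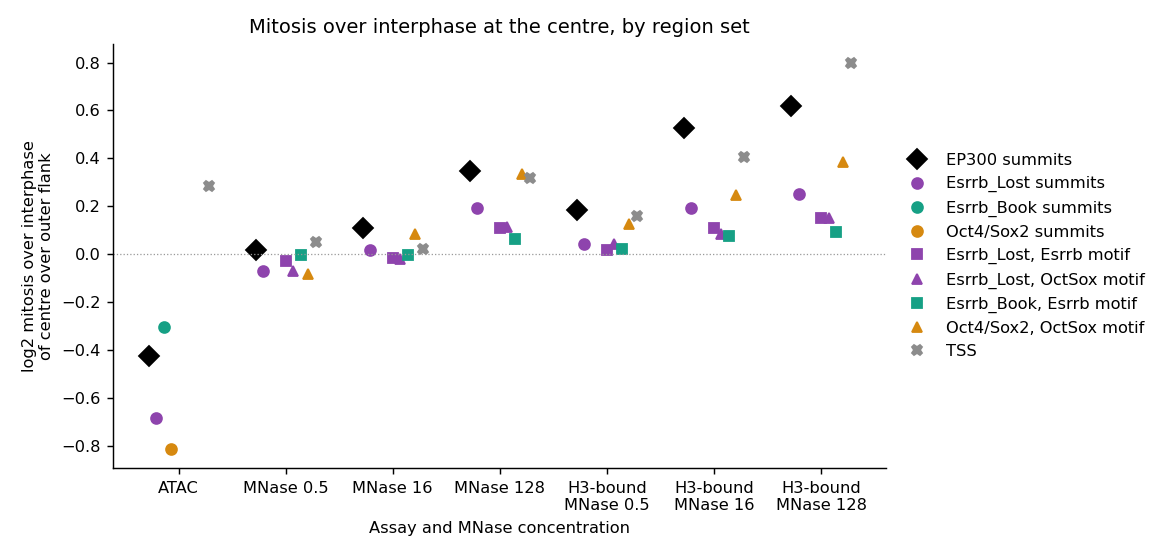
Log2 ratio of mitosis over interphase of centre over outer flank for each assay and MNase concentration, 1 point per region set (EP300 summits as black diamonds, the other sets in the legend). EP300 summits lie at -0.43 in ATAC, at 0.02, 0.11 and 0.35 in total MNase and at 0.18, 0.53 and 0.62 in H3-bound MNase as the concentration increases.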

How the data were processed

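The authors deposited 1 table of average profiles for ATAC, total MNase and H3-bound MNase. Per the file headers, its values are ATAC cut sites or MNase fragment midpoints per base, with a smooth curve of each. Scale, normalization, fragment size limits and the pooling of libraries are not given in the sources used here. Per the submitters' processing notes, Bowtie2, MACS2, RSEM and STAR and the build mm9 were used in the series. Sequencing depth is unknown, so no interval is given.

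With Python 3.11.15 (numpy 2.4.6, scipy 1.17.1 and pandas 2.3.3) profiles were summarised in windows around the summit, and maxima were located on arm-averaged profiles smoothed with a Gaussian (SD 25 bp, minimum prominence 1% of the flank) as the highest maximum from 30 to 230, 230 to 400 and 400 to 580 bp. Distances were rounded to 10 bp. With 1 profile per condition no test was made. EP300 summits as the subject, the windows for the maxima and the sets compared were chosen with earlier results of these data known. RNA tables were not used here.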

Additional observations from a re-analysis of the deposited data

Results flagged for a closer look

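The direction of the mitosis over interphase ratio differed in 5 cases, each with 1 profile per state, and none of these differences was tested. All but the last compare concentrations or fractions at EP300 summits, and the last compares EP300 summits with TSS. In total MNase the central log2 ratio was 0.33 at 0.5 and -0.28 at 16, a difference of 0.61, and it was -0.05 at 128, a difference of 0.39 from 0.5. The outer flanks had log2 ratios of 0.32, -0.39 and -0.40 at the same concentrations. At 16 the H3-bound fraction had a central log2 ratio of 0.50 where total MNase had -0.28, a difference of 0.78. At 128 it had 0.20 where total MNase had -0.05, a difference of 0.25. The value of -0.05 is smaller in size than the 0.1 by which a value could move and count as the same. The outer flanks of the H3-bound fraction had log2 ratios of -0.03 at 16 and -0.42 at 128. These MNase values are levels as deposited, and relative to the own flank none of them was negative. Centre over flank had log2 ratios of 0.02, 0.11 and 0.35 in total MNase at 0.5, 16 and 128. In H3-bound MNase they were 0.53 at 16 and 0.62 at 128. In ATAC, centre over flank had a log2 ratio of -0.43 at EP300 summits and 0.28 at TSS, a difference of -0.71.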

How the results depend on the processing

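With 1 profile per condition, a value was counted as the same when it moved by at most 0.1 on the log2 scale or 10 bp without turning its sign. Under the alternatives, 39 values moved, 19 turned sign and the others were the same. Dividing each profile by its own outer flank moved the central log2 ratio of mitosis over interphase to -0.43 in ATAC, 0.019 in total MNase at 0.5, 0.18 in H3-bound MNase at 0.5 and 0.62 in H3-bound MNase at 128. It turned the sign in total MNase at 16 (0.11) and 128 (0.35). A centre of 25 bp each side moved that ratio to 0.21 in total MNase at 0.5 and to 0.60 in H3-bound MNase at 16. The effect of 128 over 0.5 on centre over flank in H3-bound MNase in mitosis was 0.87 with 25 bp. In total MNase in interphase, main value 0.0069, that effect turned to -0.070 with 50 bp, -0.13 with 25 bp, -0.0016 with the flank from 900 bp, -0.021 on the right arm and -0.0004 on the smooth curve of the authors. H3-bound over total at the centre, relative to the flank, moved with 50 and 25 bp to -0.65 and -0.70 in mitosis at 0.5, -0.86 and -0.90 in interphase at 0.5, and -0.66 and -0.71 in interphase at 16. Centre over flank turned to a log2 value of -0.0002 in total MNase at 16 in interphase with 25 bp, and to -0.038 with 50 bp and -0.074 with 25 bp in H3-bound MNase at 16 in mitosis. The difference of EP300 summits from Esrrb_Lost moved to 0.46 in H3-bound MNase at 16 with 25 bp and otherwise stayed the same. The difference from TSS, under 0.1 in size in 4 of 7 cases, turned sign in total MNase at 0.5 (left arm 0.0023), at 16 (-0.045 with 50 bp, -0.10 with 25 bp) and at 128 (-0.066 with 50 bp, -0.071 with 25 bp, -0.18 on the left arm), and in H3-bound MNase at 0.5 (-0.014 with 50 bp, -0.037 with 25 bp) and 16 (-0.012 on the left arm). It moved to -0.19 in total MNase at 0.5 with 25 bp, to 0.18 at 128 on the right arm, and in H3-bound MNase to 0.27 at 16 on the right arm and -0.34 at 128 with 25 bp. The cause was not tested. No shift of a maximum turned sign: the first maximum of H3-bound MNase at 16 was 50 bp closer in mitosis on the right arm (-50), where the value from both arms was -70. Of the second and the third maxima, 4 and 6 shifts moved by 20 bp, the smallest being that of the second maximum of H3-bound MNase at 128, -10 with the smoothing SD lowered by 50% against -30. With a smoothing SD of 50 bp, 3 of 5 pairs of first maxima were left, and on the smooth curve of the authors 4 of 5. No paired analysis was possible because the table holds 1 profile per condition, and leaving out a library was not possible for the same reason. No other fragment size class could be run, since the profiles hold 1 class each.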
